A study of Mus musculus with 8 samples.

Results

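The Reg family of secreted lectins was followed in pancreatic islets attacked by T cells, with and without neutralisation of interferon-γ (IFN-γ). The genes were chosen by name: every probe set to which the platform annotation gave exactly 1 of the 7 symbols Reg1, Reg2, Reg3a, Reg3b, Reg3d, Reg3g and Reg4 was taken, which gave 8 of the 45101 probe sets on the array, 2 of them for Reg3b and 1 for each other gene. The diabetogenic islets came from NOD.Scid mice, hosts that lack T and B cells but keep innate cells such as macrophages, 3, 4 and 8 days after they were given CD4+ T cells that carry the BDC2.5 transgenic receptor for a beta cell antigen. The protected islets came from NOD.Scid mice given the same cells and 2 injections of an antibody against IFN-γ, on day −1 and day 2 relative to the transfer, and were taken on days 3, 4, 5 and 8. Islets for comparison came from untreated NOD.Scid mice (day 0). Each of the 8 arrays (3 diabetogenic, 4 protected, 1 untreated) was hybridised with the pooled RNA of 5 mice, with 1 array per arm and day. The diabetogenic mice received no control antibody, so neutralisation of IFN-γ and the antibody injections themselves cannot be told apart. All islets were cut from tissue sections by laser capture.

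Reg proteins are small secreted proteins built around a C-type lectin fold, and the family takes its name from a transcript found in regenerating islets. In the mouse pancreas Reg1 and Reg2 are made mainly by acinar cells, the cells around the islets that secrete digestive enzymes. Reg3b, also called pancreatitis-associated protein, is low in the resting pancreas and strongly induced in acinar cells by pancreatitis, and in the gut Reg3b and Reg3g are antibacterial lectins. Cytokines that act through the transcription factor STAT3, among them interleukin-6 and interleukin-22, are known inducers of Reg3 genes. A dissected islet can carry acinar tissue at its rim, so the Reg genes were set beside 17 genes of acinar digestive enzymes measured on the same arrays.

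In RefSeq (GRCm38.p6), 6 of the 7 genes lie within 98 kb on chromosome 6, from Reg3b (78370885 to 78373466, plus strand) through Reg3d, Reg3a, Reg2 and Reg1 to Reg3g (78466269 to 78468874, minus strand). Reg4 lies on chromosome 3. The 250 bases before the annotated start are shown for 3 members that the arrays separated: Reg3b, the member that differed most between the arms, Reg3g, whose upstream sequence is the most like it in the family (68.4% of aligned bases identical) but whose probe set stayed dim, and Reg1, whose course was nearest to that of the enzyme gene Cela1. Capitals mark matches to any of 4 motifs searched on both strands, namely TTCNNNGAA (the gamma-activated site bound by STAT factors), TTCCNGGAA (its STAT3 form, which is contained in the first), TGACTCA (AP-1) and TTTCCCA (the TC-box of the acinar factor PTF1).
Reg3b, chr6:78370635-78370884, plus strand: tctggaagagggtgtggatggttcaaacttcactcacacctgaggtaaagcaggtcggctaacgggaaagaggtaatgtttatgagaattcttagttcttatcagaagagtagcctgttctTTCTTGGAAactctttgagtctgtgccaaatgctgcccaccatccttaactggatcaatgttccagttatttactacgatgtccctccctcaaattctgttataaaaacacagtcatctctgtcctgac
Reg3g, chr6:78468875-78469124, minus strand: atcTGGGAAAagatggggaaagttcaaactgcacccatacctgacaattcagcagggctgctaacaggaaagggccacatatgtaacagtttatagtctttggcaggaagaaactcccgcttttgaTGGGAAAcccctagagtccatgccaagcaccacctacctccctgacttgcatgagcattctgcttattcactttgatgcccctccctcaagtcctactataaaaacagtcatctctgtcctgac
Reg1, chr6:78425733-78425982, plus strand: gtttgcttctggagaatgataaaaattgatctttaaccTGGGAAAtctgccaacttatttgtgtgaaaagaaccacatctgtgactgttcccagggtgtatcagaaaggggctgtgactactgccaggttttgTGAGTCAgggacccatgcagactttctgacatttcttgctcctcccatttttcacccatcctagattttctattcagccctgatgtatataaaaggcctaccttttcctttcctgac

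The gamma-activated site was found upstream of 2 of the 7 genes, as TTCTTGGAA in Reg3b (129 to 121 bases before the start) and as TTCCCAGAA in Reg3d (238 to 230 bases before it), and in 7.02% of all 32851 RefSeq promoter windows of that length. In Reg3d it overlaps a TC-box match. The STAT3 form was found in 0 of the 7 and in 0.913% of all windows. The TC-box was found upstream of 3 of the 7 (Reg1, Reg3d and Reg3g), in 6.82% of all windows and in 5 of 21 windows of the digestive enzyme genes. The AP-1 motif was found upstream of Reg1 alone and in 4.46% of all windows. These matches describe the letters in this window only.

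Values are linear intensities as deposited, and array medians lay between 3.14 and 3.96. The beta cell gene Ins2, which encodes insulin, was bright on every array, between 3409 and 6359. Other islet hormone genes were less even. On day 4 Iapp stood at 99.7 in diabetogenic islets against 1143 in protected ones. Gcg stood at 52.8 against 895, Pyy at 31.3 against 211 and Sst at 2.03 against 10.1 on that day. Ppy went the other way, at 3.95 against 1.54. The arrays differed in their bright end. The share of probe sets lying 8-fold or more over their array's median was 4.75%, 0.900% and 2.06% of probe sets on days 3, 4 and 8 of the diabetogenic arm, 5.35%, 2.29%, 3.91% and 3.14% of probe sets on days 3, 4, 5 and 8 of the protected arm, and 4.75% on the untreated array. The 3′ to 5′ ratio of the Gapdh control, which grows as RNA is shortened, was 9.11, 2.78 and 19 on days 3, 4 and 8 of the diabetogenic arm, 8.49, 10.5, 6.4 and 10.8 on days 3, 4, 5 and 8 of the protected arm and 5.14 in untreated islets. The same ratio of the Actb control gave another order. It was 5.54, 2.25 and 13.8 on the diabetogenic arrays, 5.01, 9.24, 24.2 and 10.5 on the protected arrays and 1.86 in untreated islets. The median of the hybridisation control probe sets was between 551.2 and 1712 on arrays of days 4, 5 and 8 and at most 2.285 on those of day 3 and of untreated islets. That split falls between days, alike in both arms, and separates untreated islets from the later days. Comparisons were made on log2(intensity + 2.155), a scale that understates differences of dim genes, by limma fitted across 16396 genes. Of the 7 Reg genes 6 passed the filter on dim probe sets (at or above the array median on at least 2 arrays), and Reg3g did not.

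Reg3b was the member with the widest range. Its brighter probe set (1448290_at) stood at 7.88, 9.85 and 1.77 on days 3, 4 and 8 of the diabetogenic arm, at 23.3, 257, 45.3 and 60.1 on days 3, 4, 5 and 8 of the protected arm, and at 13.0 in untreated islets. The highest diabetogenic value lay below the lowest protected one, so the arms did not overlap, and the untreated value lay between them. Of the 6 tested members Reg3b was the 1 whose diabetogenic values all lay below the protected ones, where 2.31% of all tested genes did, and 0 lay wholly above, where 1.83% did. Of the 17 digestive enzymes 0 lay wholly below or above. The second probe set (1416297_s_at, a suffix that marks probes matching more than 1 transcript) stood at 5.42, 1.58 and 3.44 on the diabetogenic arrays, at 12.0, 192, 17.9 and 15.6 on the protected arrays and at 5.15 in untreated islets, again with no overlap between the arms. Both probe sets were highest on the protected array of day 4.

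Reg1 and Reg2, the members made by resting acinar cells, had another course. Reg1 stood at 64.5, 2.85 and 1.5 on days 3, 4 and 8 of the diabetogenic arm, at 60.1, 83.4, 22.3 and 20.5 on days 3, 4, 5 and 8 of the protected arm, and at 94.7 in untreated islets. It was highest in untreated islets, alike in both arms on day 3, and below the array median on the later diabetogenic arrays. Reg2 stood at 21.2, 5.14 and 2.93 on the diabetogenic arrays, at 23.2, 85.4, 12.7 and 24.4 on the protected arrays and at 21.2 in untreated islets. Of the 3 days shared by both arms, the diabetogenic value of Reg2 was clearly the lower one on days 4 and 8, and the ranges of the arms overlapped for both genes.

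Reg3a and Reg3d were brightest on the protected array of day 4 and at most 8.48 elsewhere. On the protected arrays of days 5 and 8 Reg3a lay at percentiles 82.0 and 81.2 of all probe sets. Reg3a stood at 1.77, 3.48 and 4.28 on the diabetogenic arrays, at 2.71, 21.7, 8.48 and 7.41 on the protected arrays and at 2.01 in untreated islets. Reg3d, which in the mouse is the gene related to the hamster islet neogenesis protein INGAP, stood at 2.83, 4.29 and 2.75 on the diabetogenic arrays, at 3.73, 22.7, 6.39 and 1.10 on the protected arrays and at 3.29 in untreated islets. Both had ranges that overlapped between the arms.

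Reg3g and Reg4 stayed near or below the array median throughout. Reg3g ranged from 1.68 to 2.90 on the diabetogenic arrays and from 1.78 to 3.87 on the protected ones, against 1.82 in untreated islets, and reached the array median on 1 array, the protected one of day 4. Reg4, a member best known from the gut, ranged from 2.49 to 5.10 on the diabetogenic arrays and from 2.39 to 4.47 on the protected ones, against 4.89 in untreated islets. At this signal a difference in Reg3g or Reg4 would have been hard to detect.

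**Figure D1:**
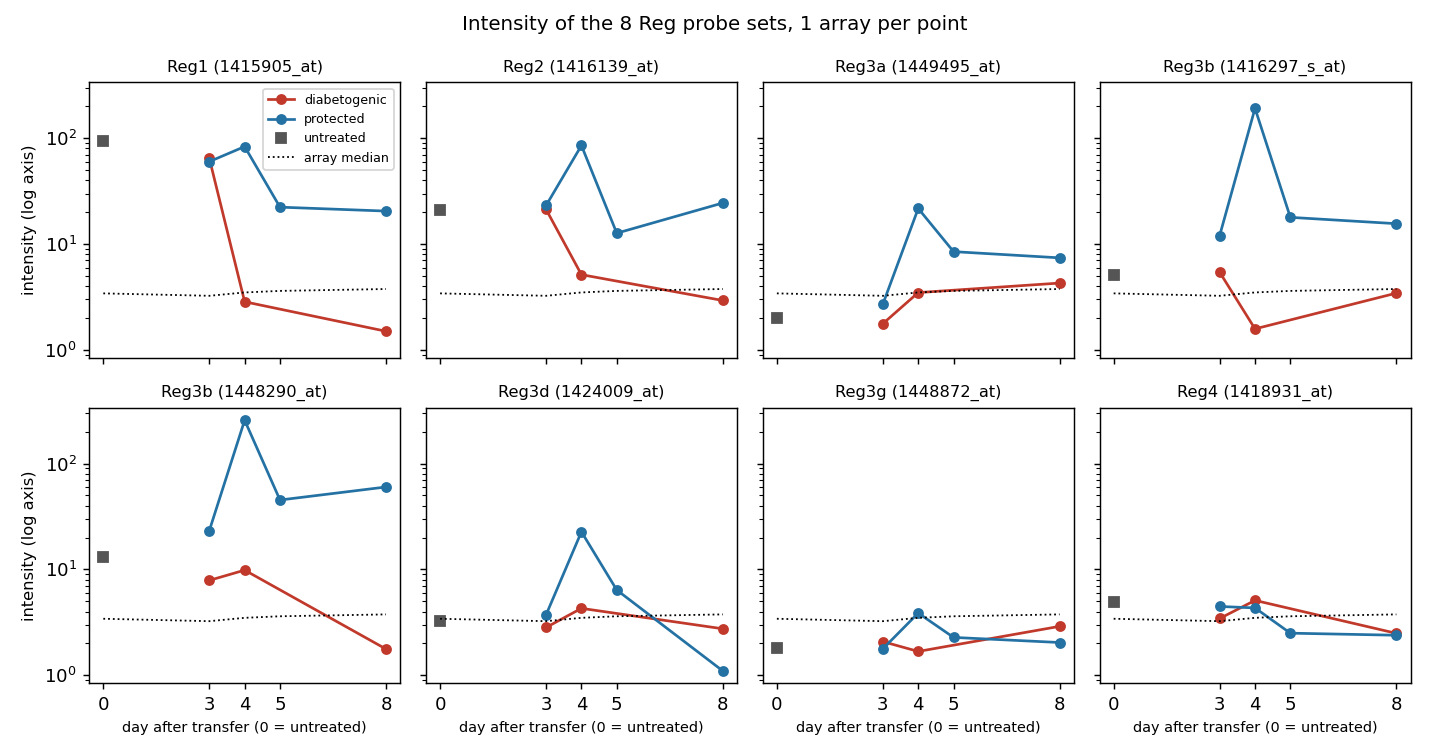
Intensity of each of the 8 Reg probe sets (log axis) against the day after T cell transfer, 1 array per point, for diabetogenic islets (red), protected islets (blue) and untreated islets (grey square, day 0); the dotted line is the array median, averaged over the arrays of a day. Both Reg3b probe sets show the protected line above the diabetogenic one on every shared day, while Reg1 starts alike in both arms on day 3 (64.5 and 60.1), and Reg3g and Reg4 lie near the dotted line.

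The arms were compared over days 3, 4 and 8 with day as a block, to ask which Reg genes differ when IFN-γ is neutralised. The level of Reg3b in diabetogenic islets was 9.53-fold below that in protected ones. Its log2 difference was −3.25 ± 0.51 (SE from limma, adjusted p = 0.00203), with the same sign on 3 of 3 days. By day the difference was −1.34, −4.43 and −3.99, and the SE rests mostly on the spread of other genes, not on these 3 values. Reg3b was the 1 of 6 tested members that passed, where 0.0915% of all tested genes passed as lower, and 0 passed as higher, where 0.0122% of all genes did. The other 5 did not pass, with the smallest adjusted p at 0.171. Their differences were −2.21 ± 0.54 for Reg1, −2.03 ± 0.50 for Reg2, −0.99 ± 0.37 for Reg3a, −0.53 ± 0.39 for Reg3d and −0.02 ± 0.33 for Reg4. The median of the 6 was −1.51, against −0.07 over all genes and −1.71 over the 17 digestive enzymes. A gene's own spread had 2 degrees of freedom in this fit, against 27.1 drawn from genes of like level.

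The call on Reg3b was lost without the day block (adjusted p = 1), after quantile normalization (−2.81, adjusted p = 0.167), with the mean of both probe sets (−3.00, adjusted p = 0.698) and without the day 8 pair (−2.89, adjusted p = 0.052), and adjusted p ran from 1.72e-07 to 1 over its 12 alternatives. Fitted by itself among all tested probe sets, a setting chosen after seeing the data, the second probe set gave −2.76 ± 0.56 (limma adjusted p = 0.0846) and the brighter one −3.25 ± 0.52 (adjusted p = 0.00588). Reg1 (−3.36, adjusted p = 2.12e-06) and Reg2 (−2.99, adjusted p = 0.000121) passed without day 3. A fit without 1 day pair has fewer than 2 degrees of freedom for a gene's own spread. Its p-values thus rest still more on the spread of other genes.

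**Figure D2:**
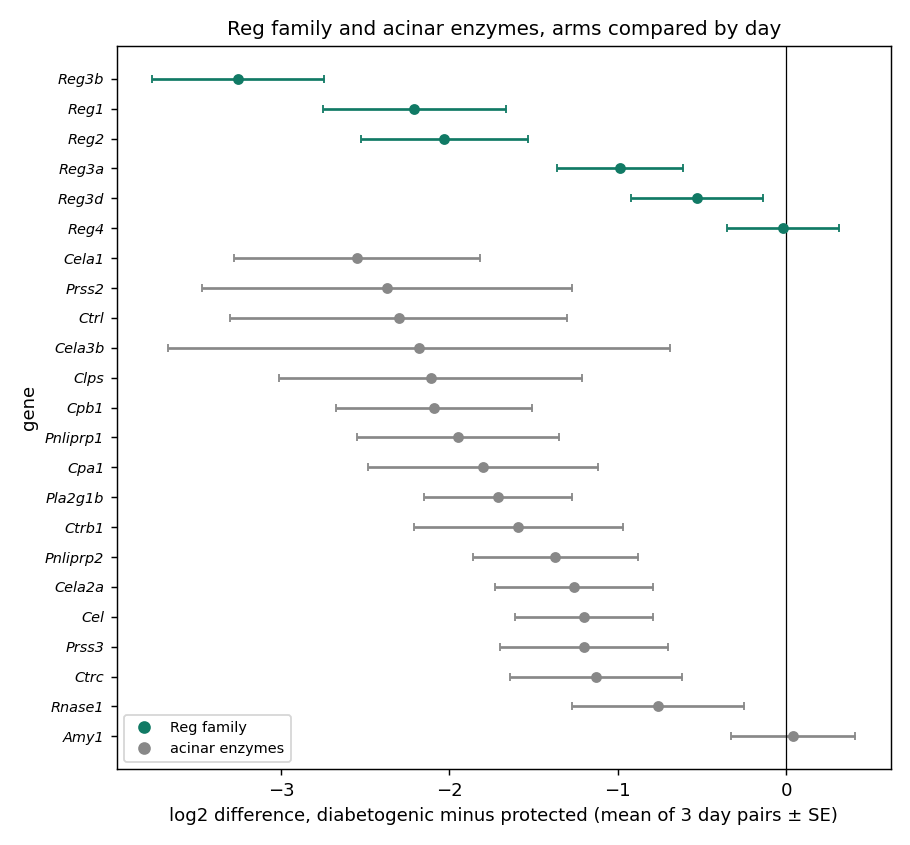
Log2 difference (diabetogenic minus protected, mean of 3 day pairs ± SE from limma) for the 6 tested Reg genes (green) and the 17 acinar enzyme genes (grey), each sorted by size. Reg3b at −3.25 lies to the left of every enzyme, Reg1 and Reg2 lie among the enzymes, and Reg4 at −0.02 lies at the zero line.

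On single days, each with 1 array in either arm and so no test, the members parted at different times. On day 3 only Reg3b of the 6 tested members was at least 2-fold lower in diabetogenic islets (2.53-fold, and 1.87-fold by its second probe set), where 0.506% of all genes were. Reg1 and Reg2 differed by 0.10 and −0.11 on the log2 scale that day. On day 4, 5 of the 6 were at least 2-fold lower, where 14.2% of all genes were, namely Reg3b (21.6-fold), Reg1 (17.1-fold), Reg2 (12.0-fold), Reg3a (4.23-fold) and Reg3d (3.85-fold). On day 8 it was 3 of the 6, where 14.1% of all genes were, namely Reg3b (15.9-fold, and 3.17-fold by its second probe set), Reg1 (6.20-fold) and Reg2 (5.23-fold). No member was at least 2-fold higher on any of these days, where 1.4%, 6% and 9.39% of all genes were on days 3, 4 and 8. The diabetogenic array of day 4 had the smallest share of bright probe sets (0.900%) and the lowest Gapdh 3′ to 5′ ratio (2.78), and the part of either in the day 4 differences was not tested. Without the day 4 pair the difference of Reg3b was −2.66 (adjusted p = 3.22e-05) and that of Reg3d was 0.18. Over days 4 and 8 alone, whose arrays share the high hybridisation controls, Reg3b was at −4.21 (adjusted p = 1.72e-07), and on day 3 alone at −1.34. Fits without 1 day pair draw the spread almost wholly from other genes, so their smaller p-values are not stronger evidence than that over 3 pairs.

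The summed intensity of the 17 digestive enzymes was 2460, 346 and 377 on days 3, 4 and 8 of the diabetogenic arm, 2080, 6880, 1280 and 2070 on days 3, 4, 5 and 8 of the protected arm, and 3220 on the untreated array. The sums were alike in both arms on day 3, and the diabetogenic sum was the smaller one on days 4 and 8, with 1 array per arm and day. In dissected tissue, fewer acinar cells and less RNA per acinar cell cannot be told apart. Some bright genes of other cells were lower in diabetogenic islets on day 4 too. Gcg was at −4.03, Csf1r at −3.58 and Iapp at −3.49 on the log2 scale, while Ins2 was at −0.58. The part of that array's small share of bright probe sets (0.900%) in the enzyme sum was not tested. Of the 17 enzymes, 16 had a negative difference between the arms, 0 passed, and the log2 differences ran from −2.55 for the elastase gene Cela1 through −1.71 for the phospholipase gene Pla2g1b, the median, to 0.04 for the amylase gene Amy1. Next to Cela1, the trypsin gene Prss2 (−2.37), the chymotrypsin-like gene Ctrl (−2.30) and the elastase gene Cela3b (−2.18) were the most negative.

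Set among the enzymes, Reg3b lay below all 17 over the 3 days (−3.25). Reg1 had 3 enzymes below it and 14 above, and Reg2 had 6 below and 11 above. Reg3a had 15 below it, and Reg3d and Reg4 had 16. On day 3 both probe sets of Reg3b (−1.34 and −0.91) lay below all 17 enzymes, which ran from −0.64 to 0.59 on that day. On day 4 the enzymes ran from −5.38 to −0.38, and the brighter Reg3b probe set (−4.43) had 4 of them below it while the second (−5.70) had 0. On day 8 they ran from −2.90 to −0.02, the brighter probe set (−3.99) had 0 below it and the second (−1.66) had 11. The place of Reg3b beneath the enzymes thus rested on both probe sets on day 3 and on 1 of them on each later day.

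**Figure D3:**
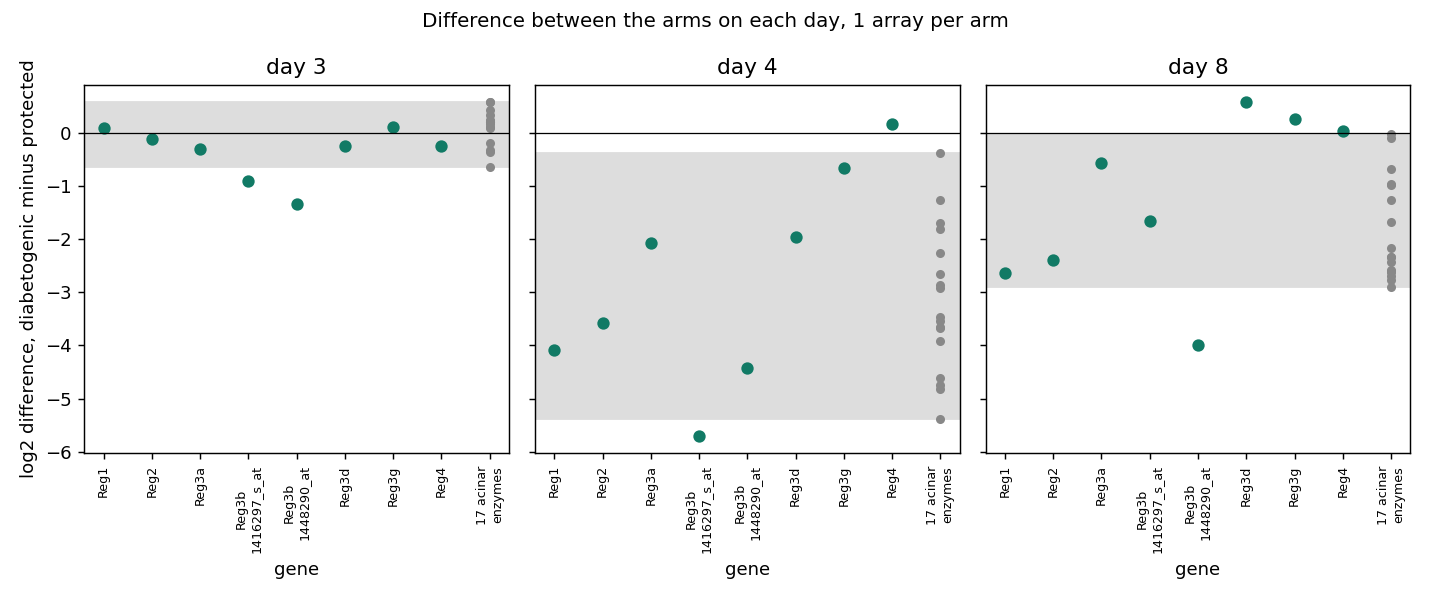
Log2 difference (diabetogenic minus protected) on days 3, 4 and 8 for each Reg probe set (green) and for the 17 acinar enzymes (grey points, with their range as a band), 1 array per arm and day. On day 3 the enzymes lie between −0.64 and 0.59 and both Reg3b probe sets lie below the band; on days 4 and 8 Reg1 and Reg2 lie inside it.

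To ask which members differ beyond the exocrine content, the mean log2 level of the 17 enzymes on each array (the acinar index) was subtracted from every gene and the fit repeated. Index differences between the arms were 0.13 on day 3, −3.16 on day 4 and −1.83 on day 8. Relative to the index, Reg3b was −1.47, −1.27 and −2.16 on the 3 days, lower in diabetogenic islets on each, with a mean of −1.63 ± 0.47 (SD, 3 day pairs). Its second probe set gave −1.03, −2.54 and 0.16. Reg1 gave −0.03, −0.94 and −0.80 (mean −0.59 ± 0.49) and Reg2 gave −0.24, −0.43 and −0.56 (mean −0.41 ± 0.16). Several index enzymes were dim on later arrays, which limits how far the index can fall. On the diabetogenic array of day 8 (median 3.96) Cel stood at 1.02, Cpb1 at 1.90 and Ctrc at 2.04. Reg3b itself stood at 1.77 there. Amy1 stood at 1.71 against 2.89 in protected islets on day 4, and at 1.40 against 1.65 on day 8. The effect of this on the ratios was not tested.

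In the fit across all genes 0 of the 6 members passed relative to the index, and 0 of 16396 genes did (0%), with 290 at an unadjusted p under 0.05. Reg3b was at −1.63 ± 0.94 (SE, limma adjusted p = 0.407), Reg1 at −0.59 ± 0.95 and Reg2 at −0.41 ± 0.99. In this fit the spread of every gene was drawn wholly from the trend over all genes. Reg3a (0.63 ± 1.28), Reg3d (1.09 ± 1.32) and Reg4 (1.60 ± 1.33) were positive, against a median of 1.55 over all genes on this scale. With 3 day pairs, the two-sided exact permutation test of a single gene cannot give a p below 0.25.

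Against untreated islets, the fitted level in protected islets was 4.38-fold for Reg3b (log2 difference 2.13 ± 1.17) and 2.50-fold for Reg3a (1.32 ± 0.71), without passing (limma adjusted p = 1 for each). Reg3d (0.55 ± 0.78) and Reg2 (0.39 ± 1.07) were positive and Reg1 (−1.22 ± 1.37) and Reg4 (−0.36 ± 0.49) negative. None of the 6 passed, and limma called 0% of all genes in this comparison, with 365 at an unadjusted p under 0.05. The fit takes the spread of the lone untreated array from that between days within an arm. By single arrays Reg3b stood above untreated islets by 0.75, 4.09, 1.65 and 2.04 on the log2 scale on days 3, 4, 5 and 8 of the protected arm, and by 0.96, 4.73, 1.46 and 1.28 by its second probe set. All 4 protected arrays thus lay above the untreated one by both probe sets.

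In diabetogenic islets against untreated ones, Reg1 was at −3.18 ± 1.42, Reg2 at −1.29 ± 1.11, Reg3b at −0.96 ± 1.21, Reg4 at −0.30 ± 0.51, Reg3d at −0.01 ± 0.80 and Reg3a at 0.33 ± 0.73. None passed (smallest limma adjusted p = 0.887), nor did any other gene (0% called, 442 at an unadjusted p under 0.05). Reg1 was nearest to untreated islets on day 3 (−0.54) and was at −4.27 and −4.73 on days 4 and 8. The brighter Reg3b probe set was at −0.60, −0.34 and −1.95 on the 3 days. Its second probe set was at 0.05, −0.97 and −0.38, so neither stood more than 0.05 above untreated islets on any diabetogenic day. Both comparisons share the single untreated array.

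Per array, the ratio of each member to the acinar index was set against the same ratio in untreated islets. In protected islets Reg3b exceeded untreated by 0.96, 3.68, 3.12 and 3.27 on days 3, 4, 5 and 8 on the log2 scale, and by 1.18, 4.31, 2.93 and 2.52 by its second probe set. On days 4, 5 and 8 both probe sets lay above all 17 enzymes. On day 3 the second lay above all 17 and the brighter had 1 enzyme above it. Reg3a lay above all 17 on days 4, 5 and 8 too (2.10, 2.82 and 2.44), though at intensities of 21.7, 8.48 and 7.41. Reg3d lay above all 17 on days 4 and 5 (1.77 and 2.12) and had 7 above it on day 8 (0.49). The dim Reg3g was at 0.18, 1.63 and 1.31 on days 4, 5 and 8, with 6, 1 and 1 enzymes above it. Reg4 was at −0.54, 0.87 and 0.60, with 13, 1 and 5 above it. The index itself was 1.47 and 1.24 below untreated islets on days 5 and 8, which raises this ratio for any unchanged gene. Reg2 was at 0.33, 1.49, 0.82 and 1.42, with between 1 and 5 enzymes above it. Reg1 was at −0.42, −0.60, −0.51 and −0.86, with 13 of the 17 above it on each of the 4 protected arrays. The same fit gave 2.76 ± 1.63 for Reg3b, 1.95 ± 1.61 for Reg3a, 1.02 ± 1.62 for Reg2 and −0.60 ± 1.63 for Reg1, against a median of 0.58 over all genes, none passing (limma adjusted p = 1; 0% of all genes called, 61 at an unadjusted p under 0.05).

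In diabetogenic islets the same ratio was at −0.50 on day 3 for Reg3b (0.14 by its second probe set), −0.45 for Reg1 and 0.09 for Reg2. On days 4 and 8 it was 2.40 and 1.12 for Reg3b (1.77 and 2.68 by its second probe set), 1.06 and 0.87 for Reg2 and −1.54 and −1.66 for Reg1. The second Reg3b probe set thus lay above all 17 enzymes on both days and the brighter one on day 4, with 3 enzymes above it on day 8. The dim members Reg4 (2.78 and 2.46) and Reg3g (2.69 and 3.41) lay above all 17 as well, and exceeded both Reg3b probe sets except for Reg4 against the second on day 8. Reg3a (3.17 and 3.69) and Reg3d (2.98 and 2.91) also lay above all 17, and higher than on the protected arrays of those days. The intensities behind these ratios were 9.85 and 1.77 for Reg3b (1.58 and 3.44 by its second probe set), 5.10 and 2.49 for Reg4, and 1.68 and 2.90 for Reg3g. Those of Reg3a were 3.48 and 4.28, and those of Reg3d 4.29 and 2.75. The index minus its untreated value was −2.74 and −3.07 on these arrays, which raises the ratio for any unchanged gene. Reg1 had 16 of the 17 enzymes above it on both days. The fit gave 1.0 ± 1.68 for Reg3b, −1.22 ± 1.69 for Reg1 and 2.29 ± 1.67 for Reg3a, against a median of 1.86 over all genes, none passing (smallest limma adjusted p = 0.533; 0% of all genes called, 296 at an unadjusted p under 0.05).

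**Figure D4:**
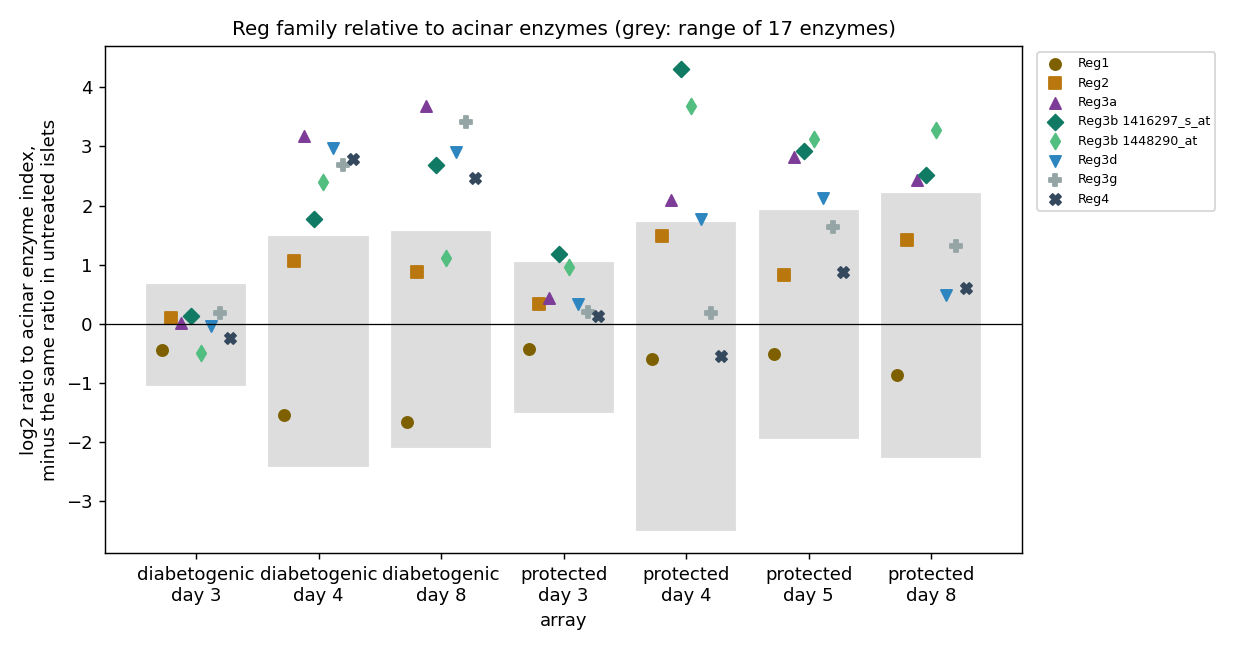
Log2 ratio of each Reg probe set to the acinar enzyme index on each diabetogenic and protected array, minus the same ratio in untreated islets; grey boxes span the 17 enzymes. In protected islets of days 4, 5 and 8 both Reg3b probe sets lie above the box and Reg1 lies inside it; on the diabetogenic arrays of days 4 and 8 Reg3a, Reg3d, Reg3g, Reg4 and the second Reg3b probe set lie above the box, as does the brighter one on day 4.

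Over the 8 arrays the 2 genes with the most similar log2 course to Reg1 were enzymes, Cela1 (Pearson r = 0.985) and the carboxypeptidase gene Cpb1 (0.983). Those nearest to Reg2 were Ctrl (0.984) and Sycn (0.972), which encodes the zymogen granule protein syncollin. Those nearest to Reg3b were Vill (0.963) and Zfp30 (0.957), at most 6.57 and 17.6 in intensity. Those nearest to Reg3a were Tubg1 (0.989) and Sntg2 (0.969), and to Reg3d D830039M14Rik (0.957) and Abca2 (0.954), none above 10.1 in intensity. Reg4 lay nearest to Dsg1a (0.968) and Serpini2 (0.957). Between the members r was 0.86 for Reg1 with Reg2, 0.91 for both probe sets of Reg3b, 0.83 for Reg2 with the brighter Reg3b probe set and 0.52 for Reg1 with it. These values share arrays and scaling and describe likeness only.

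Other genes of acinar cells had differences of the same sign, most of them smaller. Of 12 acinar genes that encode no digestive enzyme, 11 had a negative difference between the arms and 0 passed (median −0.35). Syncollin (Sycn, −2.30 ± 0.71), the scavenger-receptor protein gene Dmbt1 (−2.30 ± 0.55) and the granule lectin gene Zg16 (−1.94 ± 0.72) were the most negative, and Rbpjl, a subunit of the acinar factor PTF1, was at −0.42 ± 0.32. Duct markers, for cells that also border the islets, were negative for 7 of 11 with 0 passing (median −0.16), the most distant being the carbonic anhydrase gene Car2 (0.63 ± 0.34) and the keratin genes Krt18 (−0.62 ± 0.76), Krt8 (−0.58 ± 0.50) and Krt7 (−0.37 ± 0.62). Their summed intensity ran from 116 to 323 in diabetogenic islets and from 262 to 367 in protected ones, against 260 in untreated islets.

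Genes of the cytokine route known to induce Reg3 genes were set beside Reg3b, and its part in the result for Reg3b was not tested. Over all tested genes 0.104% passed between the arms in either direction, so few passing genes would be found in any short list. Of 15 tested genes for STAT3-activating cytokines, their receptors and signal proteins, 8 were negative, 7 positive and 0 passed (median −0.03). The feedback inhibitor gene Socs3 (−1.20 ± 0.52, limma adjusted p = 0.518) was the most negative. It stood at 56.9, 15.7 and 13.6 on days 3, 4 and 8 of the diabetogenic arm, at 76.6, 62.3, 74.9 and 37.2 on days 3, 4, 5 and 8 of the protected arm, and at 9.43 in untreated islets. The kinase gene Jak2 was at −1.01 ± 0.42, the cytokine gene Osm at 0.46 ± 0.37 and Il6 at −0.72 ± 0.33, with Il6 at 6.79 or less on every array. Il22 had no probe set with 1 symbol. Of 17 targets of STAT3 and acute phase genes, 11 were negative and 1 passed, the metalloproteinase inhibitor gene Timp1 (−2.87 ± 0.47, limma adjusted p = 0.00253). The serum amyloid gene Saa3 (1.15 ± 0.39), the clusterin gene Clu (−1.13 ± 0.99) and the fibrinogen gene Fga (−1.09 ± 0.36) did not pass. Extl3, reported as a receptor for Reg proteins, was at 0.11 ± 0.36 and stood between 3.43 and 8.95. Cd44 (−1.06 ± 0.39) and Egfr (−0.23 ± 0.38), both reported to act with Reg proteins, did not pass either.

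Some markers of infiltrating cells differed in the same direction as Reg3b. Of 8 genes of alternatively activated macrophages, a state driven by type 2 cytokines, all 8 were negative and 5 passed (median −2.19), Ccl24 (−4.51 ± 0.49), Chil3 (−3.88 ± 0.55), Retnla (−2.54 ± 0.40), Arg1 (−2.22 ± 0.41) and Cd163 (−1.89 ± 0.37), with limma adjusted p between 6.01e-06 and 0.0233. The summed intensity of all 8 was 165 to 393 in diabetogenic islets, 800 to 4960 in protected ones and 21.5 in untreated islets. Its highest value was on day 5, where Reg3b was not highest. On every diabetogenic and protected array most of this sum came from Ccl17, which did not pass (−2.16 ± 1.58, limma adjusted p = 0.695). Ccl17 stood at 132 to 362 in diabetogenic islets, 559 to 3667 in protected ones and 3 in untreated islets. General macrophage markers were negative for 6 of 7 with 0 passing (summed 137 to 1250 in diabetogenic islets, 206 to 1450 in protected ones and 44.2 in untreated islets), Csf1r at −1.29 ± 1.29 being the most distant, followed by Fcgr3 (−0.98 ± 0.43), Lyz2 (−0.67 ± 0.55) and Cd14 (−0.52 ± 0.35). T cell markers (5 of 5 negative, 0 passing, Cd3e at −1.30 ± 0.39) summed to 19.2 to 48.5 in diabetogenic islets, 29.4 to 72.1 in protected ones and 12.6 in untreated islets. Stromal markers (5 of 7 negative, 0 passing, Acta2 at −1.45 ± 0.44) summed to 56.5 to 323 in diabetogenic islets, 67.8 to 682 in protected ones and 62.2 in untreated islets. The 6 islet hormone genes (5 negative, 0 passing) had Pyy at −1.63 ± 0.92, Gcg at −1.61 ± 1.67, Iapp at −1.33 ± 1.70 and Sst at −0.52 ± 0.44. The part of these cells in the result for Reg3b was not tested.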

How the data were processed

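The authors deposited 1 table of linear intensities for the 8 arrays. How these were summarised and scaled is not stated in the labels. Per the labels' protocols, column-extracted RNA was pooled and amplified in 1 round before labelling. Array medians lay within 0.21 on the log2 scale (limit 0.3), so no scaling was added. Symbols came from GEO's platform annotation (2016), with 1 symbol for 34958 probe sets, several for 932 and none for 9211. Those with several symbols and Affymetrix control probe sets were left out, and each gene took its brightest tested probe set. The pseudocount, 2.155, is the median over arrays of the 25th percentile. Fits used limma 3.58.1 in R 4.3.3 (lmFit, eBayes with a variance trend; Benjamini-Hochberg over 16396 genes, threshold 0.05) and were tested on simulated data. Days 3, 4 and 8 pair the arms, as the labels give. Days within an arm are not strict replicates. With day as a block, p-values between the arms set the arm difference against a spread between day pairs. That spread came mostly from genes of like level and less from the gene's own pairs. The p-values against untreated islets rest on the spread between days and pools within an arm. In each fit much of the spread was drawn from other genes, and all of it in the fits relative to the acinar index. The number of arrays limits precision. The members, gene lists and tests were chosen with earlier results of these data known. Named genes were all members, up to 4 genes of each list with the largest difference between the arms, the enzymes with the smallest and the median difference, and the 2 genes most like each tested member. Cd163, Ccl17, Cel, Ctrc, Ppy, Il6's intensity and Extl3's range were added after their values were seen. Of 25 listed enzymes, 17 had a probe set with 1 symbol, and all 17 were tested. Sequences are from RefSeq (GRCm38.p6), in which all 7 members matched by symbol.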

Additional observations from a re-analysis of the deposited data

Results flagged for a closer look

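Reg3b was singled out because the test of the arms against each other passed, with a log2 difference of −3.25 (diabetogenic minus protected, lower on 3 of 3 days, limma adjusted p = 0.00203). Its second probe set (1416297_s_at) was singled out because the protected array of day 4, at 192, stood far from the other 3 protected arrays (12.0, 17.9 and 15.6), with a gap of 0.868 of the whole range on the log2 scale, above Dixon's limit for 4 arrays. Chance gives such a gap in about 1 of 20 groups, 8 probe sets were looked at, and the arrays of this arm differ in day.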

How the results depend on the processing

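Of 330 refits of single members over 36 combinations of member and comparison, 311 kept their direction and side of the threshold. Most of these had not passed in the main fit and were far from the threshold, so this count says little about stability. The 1 combination that had passed, Reg3b between the arms, kept its call in 8 of 12 alternatives and lost it in 4. The arms comparison called 17 genes over all days, 15 of them lower in diabetogenic islets, and 8 with 4 times the pseudocount, 1 after quantile normalization, 1 with the mean of probe sets, 11 with no filter, 11 without the variance trend and 0 with no replicate block for the day pairing; leaving out 1 day pair gave 35 to 71. Reg3b stayed negative in all 12 of its alternatives in that comparison but no longer passed at −2.81 (quantile), −3.00 (mean of probe sets) and −3.25 (no block, SE 0.91), and leaving out 1 day pair gave −4.21 to −2.66, passing except without day 8 (−2.89). Sign turned in that comparison for Reg4 without day 3 (−0.11 to 0.10 over the pairs left out) and Reg3d without day 4 (−1.09 to 0.18). Against untreated islets it turned for Reg3d in diabetogenic islets without day 3 (0.05) or day 8 (0.06; range −0.14 to 0.06) and for Reg2 in protected islets without day 4 (range −0.12 to 0.74); quantile normalization and leaving out the protected array of day 3 gave 1 gene called each (0 to 1 over these). Relative to the acinar index, using the index as a covariate turned Reg3a (−0.16) and Reg4 (−0.22) between the arms, Reg4 (−0.30) in protected and Reg3b (−0.13) and Reg4 (−0.11) in diabetogenic islets. There quantile normalization called 3 genes and the covariate 3 between the arms, quantile normalization 1 in protected islets, and leaving out 1 day or array gave 0 to 11715, 0 to 4 and 0 to 6709 genes between the arms, in protected and in diabetogenic islets. The counts of 11715 and 6709 came without day 3, when the median over all genes was 2.38 and 2.77. In these fits Reg3b (−1.72, adjusted p = 0.0284) and Reg4 (2.59, adjusted p = 0.0276) passed between the arms, and Reg3a (3.43, adjusted p = 0.0357) in diabetogenic islets. The causes were not tested. Dim probe sets (Reg3g, Reg4, Reg3a) limit what can be seen.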
